A study of Arabidopsis thaliana with 26 samples.

Results

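Where degradation intermediates of the 5′ ETS ended at their 3′ side was compared between Arabidopsis plants lacking the RNA helicase MTR4 and plants with functional MTR4, in both cases with an active Exo9. Members were chosen by genotype: 4 of the 26 libraries of the series are mtr4 libraries with active Exo9, and they were set against the 4 libraries of the matching Col-0 background. The mtr4 background comprised mtr4 (2 libraries) and mtr4 rrp41 RRP41WT (2 libraries), in which the exosome subunit RRP41 was provided by the endogenous gene in the first line and by a wild-type transgene in an rrp41 null mutant in the second. The Col-0 background comprised Col-0, the untransformed ecotype (2 libraries), and rrp41 RRP41WT (2 libraries). The mtr4 allele is a T-DNA insertion, the transgene is a tagged genomic RRP41 fragment under its own putative promoter, and the combined line was obtained by crossing. Total RNA came from rosette leaves of 6-week-old plants, extracted from pools of 5 to 10 plants, and the replicates of a genotype were grown at different times. MTR4 expression was not part of these data, so the loss of MTR4 was taken from the labels.

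As background, the 5′ ETS is the spacer in front of the 18S rRNA in the polycistronic rRNA precursor. Endonucleolytic cuts at the P and P′ sites release the P-P′ fragment, which is then degraded from its 3′ end by the RNA exosome. Plant Exo9, the core of the exosome, is itself a phosphorolytic exoribonuclease through RRP41, while RRP44 and RRP6L2 are hydrolytic exoribonucleases associated with it. MTR4 is the helicase that unwinds RNA for the nucleolar exosome, and terminal nucleotidyltransferases can add untemplated A-rich tails to its substrates. Degradation intermediates with 3′ ends short of P′ are called P-P1 and are named here by the position of their last encoded nucleotide, counted from the first nucleotide of P-P′, so that the number in P176 is the length of its encoded part in nt.

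The stretch from position 140 to 200, in which most 3′ ends lay, is shown 5′ to 3′ as the DNA reference used by the authors, with capitals at the last encoded nucleotide of the ends that differed between the backgrounds in the test across positions described further on. The first line marks the 18 ends of this stretch that were higher in the mtr4 background, and the second line marks the 7 that were lower.
ends higher in mtr4: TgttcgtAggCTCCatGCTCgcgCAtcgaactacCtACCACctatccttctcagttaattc
ends lower in mtr4: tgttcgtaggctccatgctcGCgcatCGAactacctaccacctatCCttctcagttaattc
An exact match of nucleotides 1 to 200 of P-P′ was found at 1 place in TAIR10.1, chromosome 3 from 14197115 to 14197314 on the plus strand. This is 362 nt upstream of the annotated 18S rRNA gene AT3G41768, and the start of the stretch overlaps an annotated miRNA precursor gene (AT3G06345, MIR5642a). The 61 nt from 140 to 200 also matched at 2 places on chromosome 2, within the gene AT2G16586 from 7191300 to 7191360 and ahead of AT2G01010, an 18S rRNA gene, from 3283 to 3343. Reads from the copies of the rRNA repeat were counted together.

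Each read in the deposited table is 1 deduplicated molecule, and shares of ends are given in percent of the reads of that library. The mtr4 background libraries held 6171 to 16513 reads and the Col-0 background libraries 1634 to 11729. A count of 3 reads corresponded to shares of 0.0182% to 0.0486% in the mtr4 background and 0.0256% to 0.184% in the Col-0 background. No libraries of the series had identical reads, and replicates of a genotype differed by more than sampling noise. Gel selection of short RNA and the requirement for an exact match of the last 20 encoded nucleotides preceded these counts, so they describe the distribution of ends within the window and not the amount of RNA. Shares sum to 100% in each library, and a lower share can accompany an unchanged number of molecules.

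In the mtr4 background, ends from P176 to P180 and at P157 and P158 took larger shares, and P161, P168 and P186, the leading ends of the Col-0 background, took smaller ones. Of the 352 positions with at least 1 read, 69 had a mean share of 0.1% or more and were tested. Of these 69, 20 (29%) were higher and 8 (11.6%) lower in the mtr4 background at an adjusted p under 0.05 (limma on log2 shares, Benjamini-Hochberg adjustment), 40.6% together. The groups did not overlap at 22 positions (31.9%), of which 20 were among those called. Among the called ends, P121, P147, P153 and P481 averaged below 0.1% in the Col-0 background and P211 in the mtr4 background. These ends passed the filter only through the background in which they were higher. Positions called higher held 51.5% of the reads in the mtr4 background and 20.2% in the Col-0 background, whereas positions called lower held 19.4% in the mtr4 background and 50.8% in the Col-0 background. The median tested position was 0.45 higher in the mtr4 background on the log2 scale. Centring each library on the mean of its log2 shares moved this median by −0.37 and gave 14 higher and 12 lower positions, so that 53.8% of the calls were higher instead of 71.4%. An exact permutation test at each position called 0 after adjustment, with 22 positions at the smallest unadjusted p it allows, 0.0286.

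**Figure D1:**
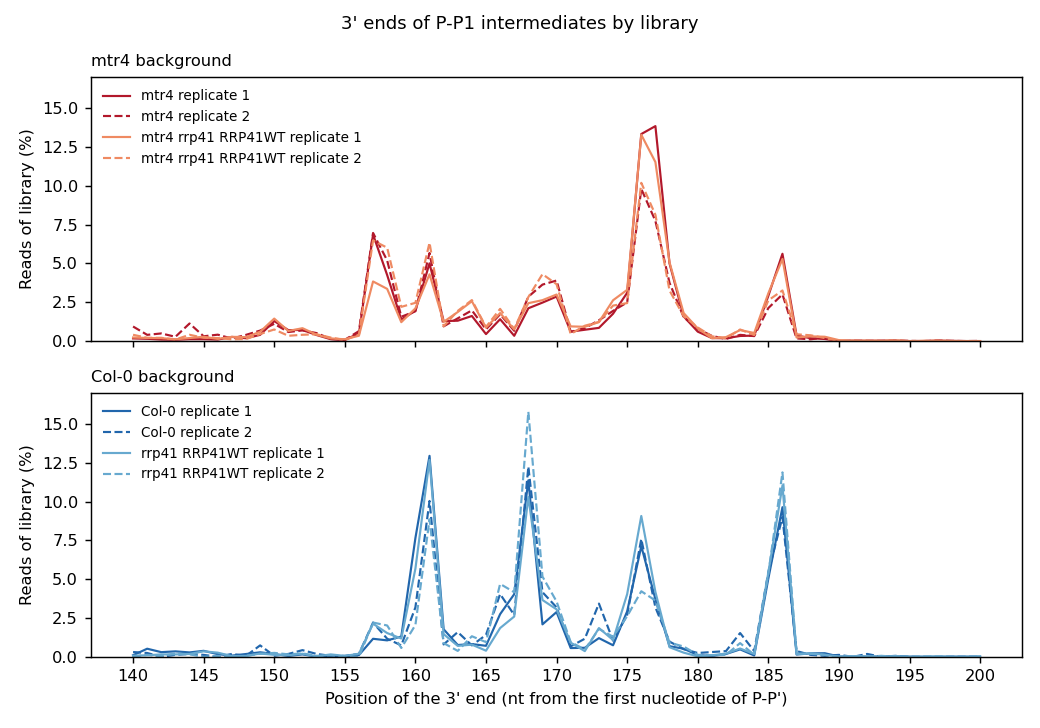
Share of reads (%, y axis) ending at each position from 140 to 200 nt (x axis) in the 4 mtr4 background libraries (top) and the 4 Col-0 background libraries (bottom), 1 line per library, replicate 1 solid and replicate 2 dashed. In the mtr4 background the highest peak lies at P176 and P177, where the means are 11.7% and 10.3%, while the Col-0 background has its highest mean at P168, with 12.4%.

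P168 showed the largest fall of all ends in percentage points. It made up 2.11% and 2.86% of the reads in mtr4 and 2.44% and 2.84% in mtr4 rrp41 RRP41WT, against 11.4% and 12.2% in Col-0 and 10.3% and 15.8% in rrp41 RRP41WT. Every mtr4 library thus lay far below every Col-0 background library. The means were 2.56% ± 0.356 in the mtr4 background and 12.4% ± 2.38 in the Col-0 background (SD, n = 4 each), a log2 difference of −2.25 (SE 0.22, adjusted p = 1.8e-09, limma). The adjacent end P167 followed it, with 0.340%, 0.663%, 0.751% and 0.778% in the mtr4 background libraries, against 4.03%, 2.69%, 2.59% and 4.16% in the Col-0 background libraries (log2 difference −2.35, SE 0.30). P169 and P170, on the other side, averaged 3.26% and 3.36% in the mtr4 background, against 3.77% and 3.17% in the Col-0 background, and neither passed the test (limma, adjusted p = 0.63 and 0.81). Both were named after their values were seen.

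P161 was at 5.004% and 5.67% in mtr4 and 4.30% and 6.34% in mtr4 rrp41 RRP41WT, against 12.9% and 10.04% in Col-0 and 12.7% and 8.85% in rrp41 RRP41WT. The groups did not overlap, and the log2 difference was −1.05 (SE 0.21, limma). P186 was at 5.62%, 3.01%, 5.29% and 3.26% in the mtr4 background libraries, against 9.63%, 8.996%, 11.0% and 11.9% in the Col-0 background libraries (log2 difference −1.31, SE 0.23). In both lines of the mtr4 background, replicate 1 had a higher P186 share than replicate 2, and all 4 libraries stayed below the lowest Col-0 background library. Its neighbour P185 was at 2.69% ± 0.417 in the mtr4 background and at 5.32% ± 0.189 in the Col-0 background (SD, n = 4 each, log2 difference −0.98). P211, a rare end, was the last of the 6 lower ends without overlap, with 0.0318% ± 0.0149 in the mtr4 background and 0.211% ± 0.108 in the Col-0 background. It rested on 1, 3, 8 and 2 reads in the mtr4 background libraries and 18, 6, 14 and 4 in the Col-0 background libraries. It passed the filter on mean share only through the Col-0 background. P160 and P166 were also called lower, but their libraries overlapped.

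P176 was the most frequent or second most frequent end in every mtr4 background library. Its share was 13.3% and 9.80% in mtr4 and 13.3% and 10.2% in mtr4 rrp41 RRP41WT, against 7.13% and 7.59% in Col-0 and 9.07% and 4.22% in rrp41 RRP41WT. The groups were separate by a small margin, and the log2 difference of 0.77 (SE 0.22, adjusted p = 0.0058, limma) was the smallest among the named ends. After centring of the log2 shares it was 0.32 with an adjusted p of 0.388 by limma, and that of P174, the other of the named ends lost this way, was 0.59 with an adjusted p of 0.113. The ends directly downstream differed more. P177 was at 13.8%, 7.74%, 11.5% and 8.13% in the mtr4 background libraries, against 3.72%, 3.18%, 4.18% and 3.62% in the Col-0 background libraries. P178 was at 5.004%, 3.75%, 5.07% and 3.26% in the mtr4 background, against 0.682%, 0.979%, 0.617% and 0.914% in the Col-0 background, which is 5.35 times as high on average (log2 difference 2.35, SE 0.27). P179 and P180 were 3.38 and 6.06 times as high in the mtr4 background, at means of 1.64% and 0.772%.

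Together, the ends from P176 to P180 made up 34.4% and 23.6% of the reads in mtr4 and 32.5% and 24.1% in mtr4 rrp41 RRP41WT, against 12.2% and 12.5% in Col-0 and 14.2% and 9.55% in rrp41 RRP41WT. The composition of this block differed too. There were 0.38, 0.38, 0.38 and 0.32 P178 reads per P176 read in the mtr4 background libraries, against 0.10, 0.13, 0.07 and 0.22 in the Col-0 background libraries. For P177 the ratio was 0.87 ± 0.12 in the mtr4 background and 0.56 ± 0.20 in the Col-0 background, and the libraries overlapped. Relative to P176, P168 fell to 0.23 ± 0.07 reads per P176 read in the mtr4 background, against 2.02 ± 1.17 in the Col-0 background (SD, n = 4 each).

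The second group of higher ends lay upstream of P161. P157 was at 6.86% and 6.96% in mtr4 and 3.84% and 6.48% in mtr4 rrp41 RRP41WT, against 1.16% and 2.20% in Col-0 and 2.13% and 2.21% in rrp41 RRP41WT (log2 difference 1.6305, SE 0.26). P158 was at 4.70% ± 1.15 in the mtr4 background and 1.44% ± 0.433 in the Col-0 background (log2 difference 1.68, SE 0.26). P157 outnumbered P161 in 3 of 4 mtr4 background libraries, with 1.37, 1.23, 0.89 and 1.02 P157 reads per P161 read, against 0.09, 0.22, 0.17 and 0.25 in the Col-0 background libraries. P150 had the largest rise of the named ends on the log2 scale. It was at 1.29%, 1.11%, 1.45% and 0.745% in the mtr4 background libraries, against 0.179%, 0.0612%, 0.126% and 0.252% in the Col-0 background libraries (log2 difference 2.60, SE 0.39). All ends from P150 to P156 added up to 3.54% ± 0.604 in the mtr4 background and 0.840% ± 0.251 in the Col-0 background. At these ends, P150 included, reads of a sequence variant described further on could not be counted. That variant was more frequent in the Col-0 background, and its part in these rises was not tested. Between the 2 groups of higher ends, P164 was at 2.20% ± 0.490 in the mtr4 background and 0.915% ± 0.274 in the Col-0 background, and P174 was at 2.15% ± 0.383 in the mtr4 background and 1.04% ± 0.226 in the Col-0 background.

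**Figure D2:**
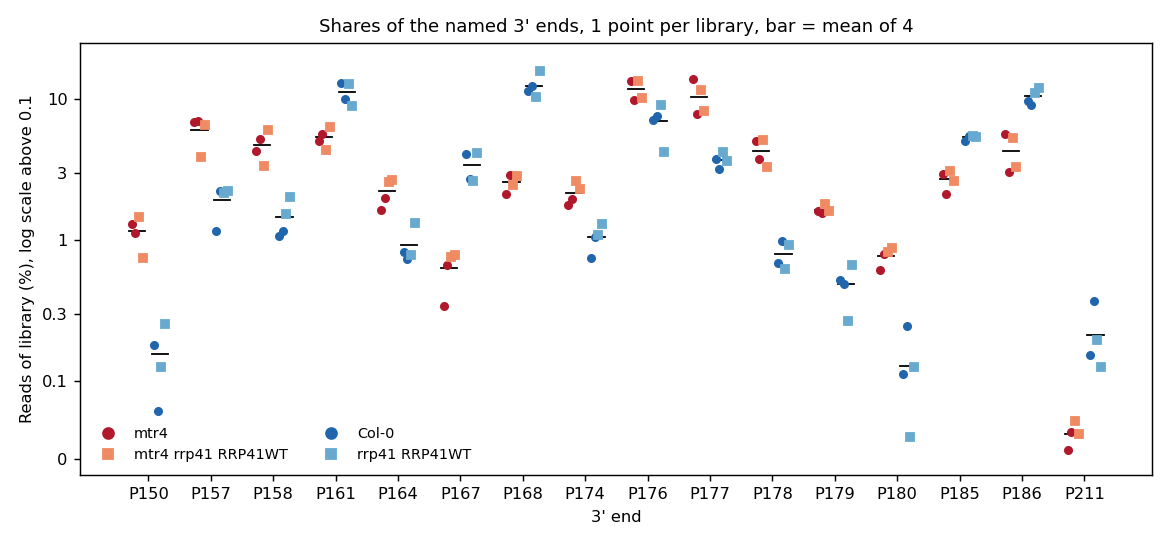
Share of reads (%, y axis, logarithmic above 0.1 and linear below) of the 16 named ends (x axis), with 1 point per library and a bar at the mean of 4 libraries. The mtr4 background stands left of the Col-0 background at each end. The 2 sets of points do not overlap at any of these ends, which is how the ends other than P161, P168, P176 and P186 were chosen.

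All ends before P161 together accounted for 24.7% and 34.1% of the reads in mtr4 and 22.5% and 28.7% in mtr4 rrp41 RRP41WT, against 21.8% and 15.8% in Col-0 and 18.5% and 14.4% in rrp41 RRP41WT (exact permutation test, p = 0.0286, 0.0440 adjusted over 20 measures). This p is the smallest that the 70 relabelings of 4 against 4 libraries allow. The difference varied between replicates, with 3.44 percentage points between the replicate 1 libraries and 16.3 between the replicate 2 libraries. Ends before P150 did not differ in the same way, with 6.44%, 14.7%, 8.01% and 8.95% in the mtr4 background, against 10.1%, 7.34%, 7.13% and 6.81% in the Col-0 background. The ends from P163 to P167 added up to 6.98% ± 1.44 in the mtr4 background and 9.34% ± 2.25 in the Col-0 background (exact permutation, p = 0.143), and within them P163 and P164 were called higher and P166 and P167 lower. Ends past P187 were at 4.91% ± 0.486 in the mtr4 background and 4.31% ± 0.246 in the Col-0 background (exact permutation, p = 0.114). The longest of them did differ. Ends up to P400 made up 98.7% ± 0.729 of the reads in the mtr4 background and 99.95% ± 0.0566 in the Col-0 background, without overlap. Ends past P400, a few reads in 100 or fewer, thus took the larger share in the mtr4 background. This difference was not tested.

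P481, the last nucleotide of the full-length P-P′ fragment, was called higher in the mtr4 background although the libraries overlapped, and was named after its values were seen. It was at 0.194% and 0.903% in mtr4 and 0.0182% and 0.648% in mtr4 rrp41 RRP41WT. In the Col-0 background it was at 0.0630% in rrp41 RRP41WT replicate 2, with 2 reads, and no read ended there in the other 3 libraries, which allows shares of up to 0.0256%, 0.184% and 0.0420%. Both replicate 2 libraries of the mtr4 background exceeded both of its replicate 1 libraries. P-P′ is longer than the RNA of 100 to 400 nt that was cut from the gel, so its share is not a measure of its abundance.

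By the entropy of end positions the reads were spread more evenly in the mtr4 background, while the other measures of spread overlapped between the backgrounds. The Shannon entropy of the end positions, which is higher when reads are distributed more evenly over more ends, was 5.13 and 5.55 bits in mtr4 and 5.27 and 5.41 bits in mtr4 rrp41 RRP41WT, against 4.99 and 5.03 bits in Col-0 and 4.87 and 4.86 bits in rrp41 RRP41WT. These values correspond to 35.0 to 46.8 equally frequent ends in the mtr4 background and 29.0 to 32.6 in the Col-0 background. The difference of 0.40 bits separated all libraries (exact permutation test, p = 0.0286, 0.0440 adjusted). It was 0.37 bits when computed at 1634 reads in every library, and 0.37 bits for ends from 140 to 200 only, where the groups overlapped and the exact permutation p was 0.0571. The 4 most frequent ends of each library held 34.0% ± 4.33 of the reads in the mtr4 background and 41.4% ± 1.78 in the Col-0 background (exact permutation, p = 0.0571). At 1634 reads, 124 ± 6.74 different ends were expected in the mtr4 background and 112 ± 3.88 in the Col-0 background (exact permutation, p = 0.0571). The median end was P175, P168, P175 and P169 in the mtr4 background libraries, against P168, P169, P169 and P168 in the Col-0 background libraries, and did not separate them.

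Nucleotides that do not match the reference were found at the 3′ end of more reads in the mtr4 background. Tails of at least 2 nt were carried by 7.53% and 8.27% of the reads in mtr4 and 7.97% and 11.3% in mtr4 rrp41 RRP41WT, against 4.80% and 3.79% in Col-0 and 5.07% and 2.58% in rrp41 RRP41WT. All mtr4 background libraries were above all Col-0 background libraries, with means of 8.76% ± 1.71 in the mtr4 background and 4.06% ± 1.13 in the Col-0 background (exact permutation, p = 0.0286, 0.0440 adjusted). When single-nucleotide additions, of which some may be sequence differences or read errors, were included, the tailed share was 20.5% ± 1.96 in the mtr4 background and 11.2% ± 2.79 in the Col-0 background (exact permutation, p = 0.0286). Weighting each position as in the mean Col-0 profile, an analysis added after the data had been seen, left tails of at least 2 nt at 8.26% ± 1.54 in the mtr4 background and 3.93% ± 0.700 in the Col-0 background (exact permutation, p = 0.0286). With end positions weighted alike, all mtr4 background libraries again lay above all Col-0 background libraries.

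Tails were longer on average in the mtr4 background. The mean length of tails of at least 2 nt was 6.21 and 6.43 nt in mtr4 and 6.71 and 6.74 nt in mtr4 rrp41 RRP41WT, against 3.92 and 5.23 nt in Col-0 and 5.03 and 5.67 nt in rrp41 RRP41WT (exact permutation test, p = 0.0286, 0.0440 adjusted). Short tails of 2 to 5 nt were carried by 4.57% ± 0.679 of the reads in the mtr4 background and 2.98% ± 1.01 in the Col-0 background. Tails of 6 to 9 nt were on 2.22% ± 0.535 of the reads in the mtr4 background and 0.613% ± 0.229 in the Col-0 background, and tails of 10 nt or more on 1.97% ± 0.514 in the mtr4 background and 0.472% ± 0.119 in the Col-0 background. None of the 3 length classes overlapped between the backgrounds. Within stretches of ends, mean length separated the backgrounds at P159 to P162 (6.65 nt in mtr4, 3.65 nt in Col-0) and P181 to P187 (9.62 and 5.59 nt). In the other stretches the libraries overlapped. There the mtr4 mean was higher in some (5.16 against 3.15 nt at P176) and lower in others (6.50 against 8.85 nt at P150 to P156). Mean length was not compared with end positions weighted alike. The longest recorded tails were 26 to 30 nt in the mtr4 background and 24 to 30 nt in the Col-0 background, where 30 nt is the most that the mapping allowed.

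The tails consisted mostly of adenosines in both backgrounds, and more so in the mtr4 background. A made up 90.3% and 92.4% of the tail bases in mtr4 and 91.3% and 92.3% in mtr4 rrp41 RRP41WT, against 76.1% and 83.0% in Col-0 and 81.9% and 86.5% in rrp41 RRP41WT (exact permutation test, p = 0.0286, 0.0440 adjusted). T, which stands for U in the RNA, made up 3.14% ± 0.576 of the tail bases in the mtr4 background and 8.38% ± 1.33 in the Col-0 background. Tails of A only were 62.2% ± 3.67 of all tails in the mtr4 background and 43.5% ± 6.24 in the Col-0 background (exact permutation, p = 0.0286). As a share of all reads, tails of A only were at 5.48% ± 1.34 in the mtr4 background and 1.72% ± 0.308 in the Col-0 background, whereas tails with any other base were at 3.28% ± 0.430 in the mtr4 background and 2.35% ± 0.849 in the Col-0 background, with overlap between libraries. The last base of the tail was T in 4.17% ± 2.00 of the tails in the mtr4 background and in 16.3% ± 3.60 in the Col-0 background. Tails of 6 nt or more had A contents of 94.0% ± 0.323 in the mtr4 background and 91.8% ± 1.59 in the Col-0 background, a smaller difference that still separated all libraries. The mapping kept tails longer than 6 nt only if they held a run of AAA or TTT.

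The 10 most frequent tails were homopolymers of 2 to 10 A and the dinucleotide AT. AA was the most frequent in both backgrounds, with 13.0% ± 1.16 of the tails in the mtr4 background and 16.6% ± 3.83 in the Col-0 background. AAAA was at 6.33% ± 1.14 of the tails in the mtr4 background and 2.49% ± 1.12 in the Col-0 background, and the tail of 10 A at 3.33% ± 0.818 in the mtr4 background and 0.910% ± 0.615 in the Col-0 background, both without overlap. The homopolymers of 7 and 8 A were also higher in every mtr4 background library than in any Col-0 background library. Those of 2, 3, 5, 6 and 9 A overlapped between the backgrounds. AT was lower without overlap, at 3.39%, 1.24%, 1.44% and 0.718% of the tails in the mtr4 background libraries, against 5.86%, 8.06%, 5.52% and 6.10% in the Col-0 background libraries.

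The positions that carried tails differed between the backgrounds. Of all tails of at least 2 nt, 26.3% ± 3.64 lay on ends before P161 in the mtr4 background, against 40.4% ± 4.85 in the Col-0 background (exact permutation, p = 0.0286, 0.0440 adjusted), although ends before P161 were more frequent in the mtr4 background. P176 carried the most tails on average in both, with 17.8% ± 2.54 in the mtr4 background and 20.5% ± 9.29 in the Col-0 background. P161 was second on average in both, with 8.51% ± 2.57 in the mtr4 background and 17.8% ± 2.45 in the Col-0 background, and it carried more tails than P176 in Col-0 replicate 2 and rrp41 RRP41WT replicate 2. The next ends in the mtr4 background were P169, P158, P160, P157, P164 and P185. In the Col-0 background they were P160, P158, P157, P143, P172 and P177. The entropy of the tailed ends, computed at 62 tails per library, was 4.17 ± 0.08 bits in the mtr4 background and 3.57 ± 0.51 bits in the Col-0 background (exact permutation, p = 0.0571). Because the reference has A at the positions of P168, P169 and P176, an A tail added to P167, P168 or P175 would be recorded as a shorter tail on a later position. P164 and P172 also lie on an A, so tails counted there may have been added to the end before.

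P185 and P186, which were almost never tailed in the Col-0 background, carried tails in the mtr4 background. Over the stretch from P181 to P187, most of whose reads end at P185 or P186, tails of at least 2 nt were found on 10.2% and 14.96% of the reads in mtr4 and 12.6% and 21.6% in mtr4 rrp41 RRP41WT, against 0.546% and 0.352% in Col-0 and 1.03% and 0.676% in rrp41 RRP41WT. P187, a rare end of this stretch, was tailed in both backgrounds, in 40% to 60% of its reads in the mtr4 background libraries, which held 6 to 19 such tails each, against 11.8% to 53.8% in the Col-0 background libraries, which held 1 to 7, and these ranges overlapped. Of 12 stretches of ends, this one had the longest tails in the mtr4 background, with a mean of 9.62 nt ± 0.268 in the mtr4 background (SD, n = 4). At P185 alone, 15, 31, 46 and 23 reads of the mtr4 background libraries had such a tail, against 1, 0, 1 and 0 in the Col-0 background libraries, although P185 took the smaller share of reads in the mtr4 background. The 2 libraries without a tail had 89 and 170 reads at P185, which allow tailed shares of up to 3.37% and 1.76%. At P163 to P167, 4.502%, 3.47%, 6.39% and 10.5% of the reads were tailed in the mtr4 background libraries, against 0.470%, 0%, 0.443% and 0.274% in the Col-0 background libraries, where 0 of 171 reads in Col-0 replicate 2 allow a share of up to 1.75%. P169 was tailed in 17.5% ± 1.37 of its reads in the mtr4 background and 2.19% ± 1.51 in the Col-0 background. P168 reads were tailed in 1.10% ± 0.795 in the mtr4 background and 0.0340% ± 0.0680 in the Col-0 background. The reference has A at the position of P169, so tails on P168 that start with A were recorded at P169 or later. The tailed shares of P168 and P169 are therefore not comparable with each other.

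The commonest tail at P185 and at P186 in the mtr4 background was a run of 9 A, and at P161 a run of 5 A. These 3 molecules are shown with their last 25 encoded nucleotides in lower case and the tail in capitals.
P185 with tail: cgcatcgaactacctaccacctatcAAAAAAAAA
P186 with tail: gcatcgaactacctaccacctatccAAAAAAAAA
P161 with tail: tagtgttcgtaggctccatgctcgcAAAAA
The molecule at P185 was read 25 times and that at P186 18 times in the mtr4 background libraries, and neither was read in the Col-0 background libraries. The molecule at P161 was read 31 times in the mtr4 background and 2 times in the Col-0 background.

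At P176, and for the stretches P150 to P156 and P157 with P158, the shares of reads with a tail of at least 2 nt overlapped between the backgrounds. At P157 alone the share was lower in the mtr4 background without overlap, with 6.02%, 5.91%, 6.15% and 4.75% in the mtr4 background libraries, against values between 8.33% and 11.8% in the Col-0 background libraries, which held 3 to 16 such tails each. P176 reads were tailed in 13.5% ± 2.76 of cases in the mtr4 background and 12.2% ± 6.55 in the Col-0 background, and P157 and P158 together in 8.21% ± 0.464 in the mtr4 background and 12.7% ± 3.11 in the Col-0 background. Ends from P150 to P156 were tailed in 16.8% ± 3.17 of reads in the mtr4 background and 31.7% ± 13.1 in the Col-0 background, which had only 19 to 65 such reads per library. At P177, tails from 1 nt were on 47.1% ± 3.21 of the reads in the mtr4 background and 46.6% ± 13.6 in the Col-0 background. Tails from 2 nt were on only 1.68% ± 0.147 in the mtr4 background and 2.83% ± 2.09 in the Col-0 background. Whether the single nucleotides at P177 were added or are sequence differences was not tested. Of 12 stretches of ends, chosen after the end positions were known, 6 were tailed (2 nt or more) in a larger share of reads in each mtr4 background library than in any Col-0 background library: P159 to P162, P163 to P167, P168, P169 to P175, P181 to P187 and past P187. Each had an exact permutation p of 0.0286, the smallest possible, and 0.0571 after adjustment over the 12 stretches, so that none passed 0.05. At P168, tails starting with A could not be counted, as they were recorded on later positions.

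**Figure D3:**
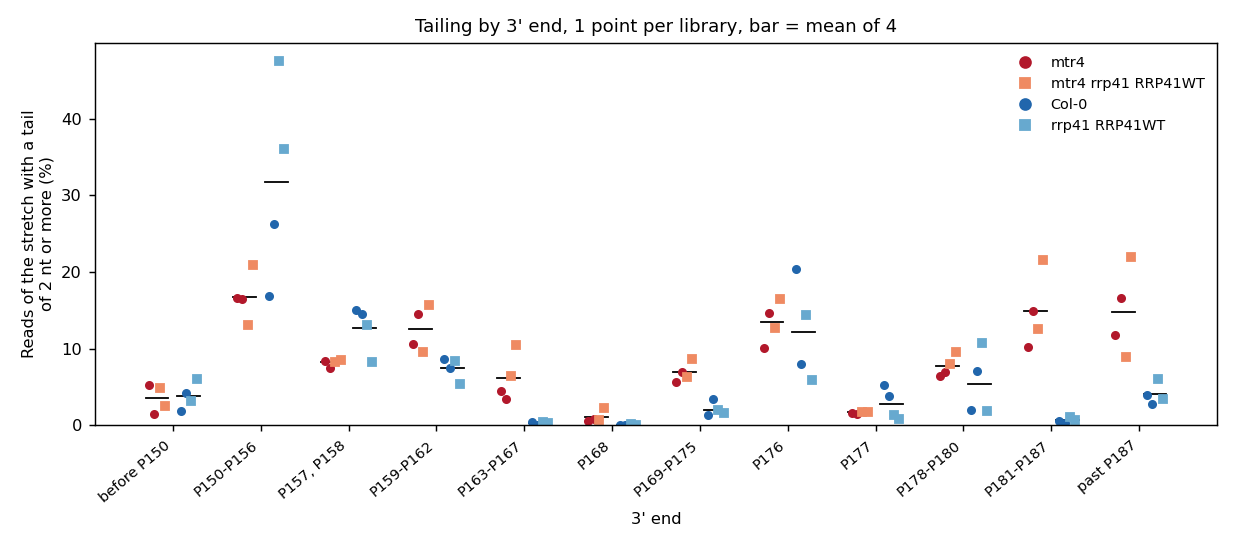
Percentage of the reads of each stretch of ends that carry a tail of 2 nt or more (y axis), by stretch (x axis), with 1 point per library and a bar at the mean of 4 libraries. The mtr4 background stands left of the Col-0 background. At P181 to P187 the mtr4 background libraries lie between 10.2% and 21.6% and no Col-0 background library exceeds 1.03%, whereas at P176 the backgrounds overlap.

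The reads came from at least 2 sequence variants of the rRNA repeat. At P137 of the P-P′ sequence, shown as a capital in the stretch from P121 to P160, reads had the reference T or a C.
variant position: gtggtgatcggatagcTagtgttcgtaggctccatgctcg
Among reads ending from P157 to P200, in which this position can be read, C was present in 31.9% and 32.2% in mtr4 and 25.8% and 50.9% in mtr4 rrp41 RRP41WT, against 55.8% and 54.1% in Col-0 and 69.6% and 80.1% in rrp41 RRP41WT. The groups did not overlap (exact permutation test, p = 0.0286, 0.0440 adjusted), by the small margin between mtr4 rrp41 RRP41WT replicate 2 and Col-0 replicate 2, whose 95% Wilson intervals ran from 49.5% to 52.3% and from 51.5% to 56.6%. In 2 other exosome backgrounds with active Exo9, described further on, the shares of C lay within the range of the mtr4 background, with 34.4% to 43.1% in rrp6L2 and 41.5% to 47.6% in RRP44KD rrp6L2. The part of the variants in the differences of end shares was examined within each variant, for ends from P157 to P200. Ends before P157 were not examined this way, and from P137 to P156 reads with C could not be counted. These ends include P150 and the stretch from P150 to P156. They also enter the sums of ends before P150 and before P161 and the entropy over all ends. Because C was more frequent in the Col-0 background, more of its molecules may be missing there. How much of the differences at these ends and in these sums comes from this was not tested.

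The variants differed in their ends within a library. C was found in 70.3% ± 6.56 of P157 reads and in 27.0% ± 10.9 of P176 reads in the mtr4 background, against 87.9% ± 3.61 of P157 reads and 51.0% ± 13.9 of P176 reads in the Col-0 background. P168 made up, of the reads with T, 2.51% ± 0.391 in the mtr4 background, against 9.83% ± 1.81 in the Col-0 background, and of the reads with C, 4.26% ± 0.759 in the mtr4 background and 16.4% ± 2.45 in the Col-0 background. P161 and P186 were also lower and P176 higher in the mtr4 background within both variants, without overlap of the libraries (exact permutation test, p = 0.0286 for each of the 4 ends and both variants). P157 was at 3.36% ± 1.04 of the reads with T in the mtr4 background and 0.771% ± 0.212 in the Col-0 background, and at 15.01% ± 3.76 of the reads with C in the mtr4 background and 3.01% ± 0.804 in the Col-0 background. Tails of at least 2 nt were more frequent in the mtr4 background within both variants as well, at 8.09% ± 1.73 of the reads with T and 10.4% ± 1.49 of the reads with C, against 4.25% ± 0.828 of the reads with T and 3.74% ± 1.56 of the reads with C in the Col-0 background (exact permutation, p = 0.0286 for both). The difference in end entropy was smaller within variants, at 0.22 bits for reads with T and 0.17 bits for reads with C, both on ends from P157 to P200 and not passing the test (exact permutation test, p = 0.0857 for T and p = 0.143 for C).

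**Figure D4:**
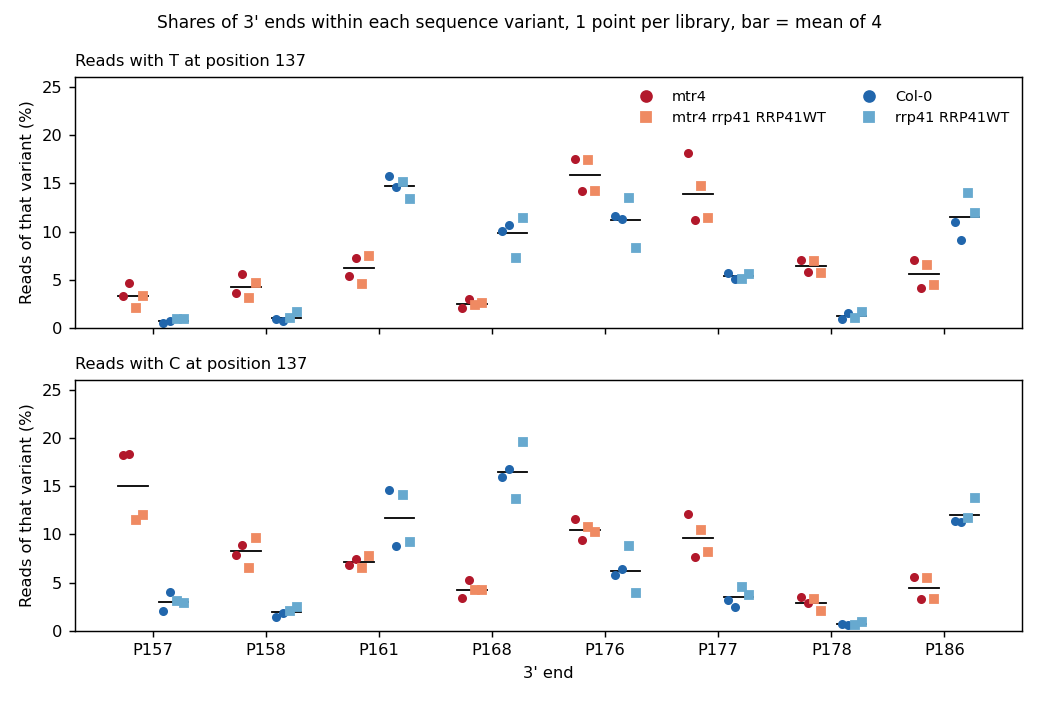
Share of the reads of each variant that ended at 8 positions (%, y axis), for reads with T (top) and with C (bottom) at P137, among reads ending from P157 to P200. Points are libraries, bars the mean of 4, and the mtr4 background stands left of the Col-0 background. P161, P168 and P186 are lower and P157, P158, P176, P177 and P178 higher in the mtr4 background in both panels, and the points of the 2 backgrounds do not overlap at any of these ends.

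The mtr4 background was set against the other exosome backgrounds with active Exo9, rrp6L2 (a T-DNA line for the exoribonuclease RRP6L2) and RRP44KD rrp6L2 (in which an artificial miRNA from the mesophyll-specific CAB3 promoter also silences RRP44), each with 4 libraries. Of 12 comparisons of 6 measures, 6 separated the libraries with an exact permutation p of 0.0286, the smallest possible, and an adjusted p of 0.0571, so none passed 0.05 after adjustment. End entropy was 5.34 ± 0.18 bits in the mtr4 background, against 4.95 ± 0.08 bits in the rrp6L2 background and 4.66 ± 0.12 bits in the RRP44KD rrp6L2 background, without overlap. Ends before P161 were at 27.5% ± 5.11 of the reads in the mtr4 background, against 18.4% ± 7.13 in the rrp6L2 background, where libraries overlapped, and 12.6% ± 3.31 in the RRP44KD rrp6L2 background, where they did not. The ends from P163 to P167 were at 6.98% ± 1.44 in the mtr4 background, against 5.70% ± 0.705 in the rrp6L2 background and 1.95% ± 0.219 in the RRP44KD rrp6L2 background, and only the RRP44KD rrp6L2 libraries did not overlap with those of mtr4.

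Tailing in the mtr4 background lay below that of RRP44KD rrp6L2. Tails of at least 2 nt were on 8.76% ± 1.71 of the reads in the mtr4 background, against 19.1% ± 1.89 in the RRP44KD rrp6L2 background, and mean tail length was 6.52 ± 0.25 nt in the mtr4 background, against 7.23 ± 0.36 nt in the RRP44KD rrp6L2 background, both without overlap. Against the rrp6L2 background, with 9.56% ± 3.76 of the reads tailed and a mean length of 6.84 ± 1.27 nt, the libraries overlapped in both (exact permutation test, p = 0.714 for the share and p = 0.657 for the length). P176 was at 11.7% ± 1.92 in the mtr4 background, against 10.8% ± 1.81 in the rrp6L2 background and 13.4% ± 0.362 in the RRP44KD rrp6L2 background, and overlapped with both.

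**Figure D5:**
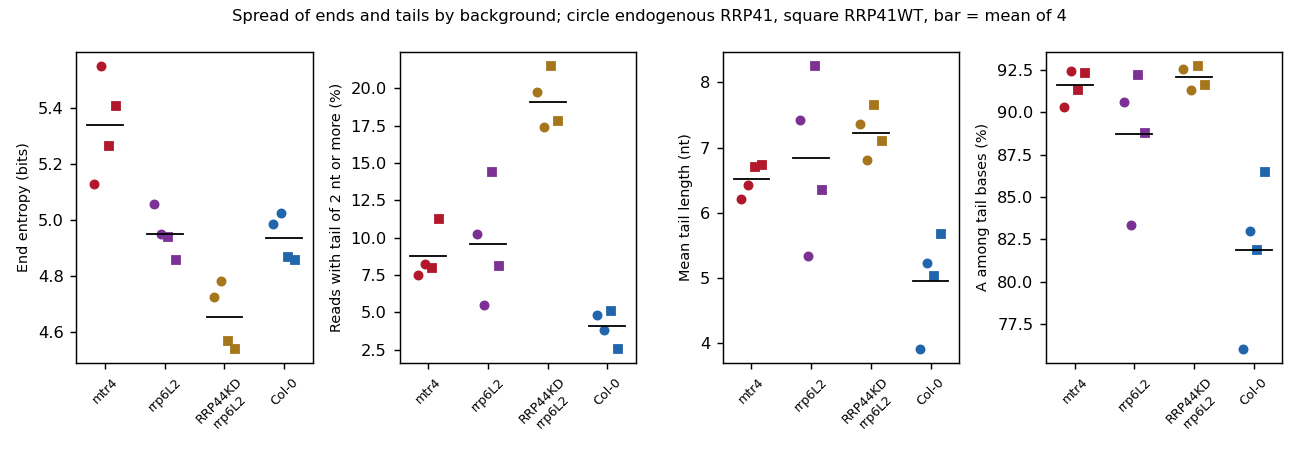
End entropy (bits), reads with a tail of 2 nt or more (%), mean length of these tails (nt) and A among tail bases (%), each on its own y axis, in the mtr4, rrp6L2, RRP44KD rrp6L2 and Col-0 backgrounds with active Exo9. Circles are libraries with endogenous RRP41, squares those with RRP41WT, and bars the mean of 4. The mtr4 background has the highest mean entropy of the 4 backgrounds, at 5.34 bits, and the RRP44KD rrp6L2 background the highest tailed share, at 19.1%.

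Whether the difference between the mtr4 and Col-0 backgrounds depended on the source of RRP41 could be tested only coarsely, with 2 libraries per line. In the test of this interaction at the 69 positions, 0 passed an adjusted p of 0.05 (limma) and 1 had an unadjusted p under 0.05. Its standard errors ran from 0.55 at P176 to 0.99 at P129 on the log2 scale, so only large differences could pass. The absence of calls is therefore no evidence that the lines agree. The end entropy difference was 0.33 bits with endogenous RRP41 and 0.47 bits with RRP41WT, and the difference in tails of at least 2 nt was 3.60 percentage points with endogenous RRP41 and 5.80 with RRP41WT. The difference in the share of tails on ends before P161 was −8.85 percentage points with endogenous RRP41 and −19.3 with RRP41WT, and that in the share of C at P137 was −22.9 with endogenous RRP41 and −36.6 with RRP41WT. The difference in the share of tails on P176 and P177, which did not pass the test over all libraries, was −7.02 points with endogenous RRP41 and 1.09 with RRP41WT. With 2 libraries per line these values were not tested singly.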

How the data were processed

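3′RACE-seq reads of P-P′ degradation intermediates from 26 libraries were taken from the table that the authors deposited, which holds 1 row per deduplicated read with its 3′ end position, encoded sequence, added nucleotides, their number, the replicate and the genotype. The deposited values have no normalisation and are positions in nt from the first nucleotide of P-P′. According to the methods of the study, an adapter with random nucleotides was ligated to the RNA 3′ ends, RNA of 100 to 400 nt was gel-selected, libraries were sequenced on a MiSeq, and reads were deduplicated and matched over their last 20 nt to the rRNA repeat reference, with trimming by 1 nt up to 30 nt to find tails. In all 224354 reads the last 20 encoded nt equalled the reference. Reads whose second trimmed nucleotide matched the reference were removed by the authors, and tails longer than 6 nt had to hold AAA or TTT.

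From this table, end shares (percent of the reads of a library), entropy, rarefied values and tail measures were computed with Python 3.11.15, pandas 2.3.3 and scipy 1.17.1. Positions with a mean share of at least 0.1% over the 8 libraries were tested with limma 3.58.1 (empirical Bayes with a trend) on log2(share + 0.05), so fold changes of rare ends are understated. For single measures, the difference in means was tested by exact permutation over libraries (two-sided), with Benjamini-Hochberg adjustment over 20 measures. On simulated libraries the position test found 91.9% of 3-fold changes but 17.5% of the smaller changes simulated, and called 2.07% of unchanged positions. The simulated spread between libraries was a fixed setting and was not estimated from the data. Ends were named by a rule: P161, P168, P176 and P186, and among ends past the threshold without overlap the 8 largest rises and the 8 largest falls in percentage points, and the 3 largest log2 differences in each direction with a mean of at least 0.3% in either background. The 10 most frequent tails and the 8 positions with most tails were named likewise. Members, measures and lists were chosen with earlier results of these data known. Alternatives comprised pseudocounts, filters, centring, untailed reads, ends moved back over templated A, single variants, a replicate block and leaving out each library. Intervals and read floors cover counting error only. Labels and methods of the study differ on the day length (16 h or 12 h of light).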

Additional observations from a re-analysis of the deposited data

Results flagged for a closer look

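In 64 groups of 4 libraries, the highest and the lowest library were compared with the spread of the group, and 4 stood apart, where about 1 in 20 groups would by chance. In the mtr4 background, mtr4 rrp41 RRP41WT replicate 1 had the fewest different ends at equal depth, with 113.901, and the lowest share of P157, with 3.8394% of its reads. In the Col-0 background, Col-0 replicate 1 had the lowest share of P157, with 1.15952%, and rrp41 RRP41WT replicate 2 had the highest share of P164, with 1.32325%.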

How the results depend on the processing

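Of 283 results under other settings, 248 were classed as the same, as were 365 of 408 with a library left out. These counts include 256 results for the 16 named ends, of which 254 were the same. Most named ends were picked for passing the test without overlap, so their stability is no separate support. For tested results the same meant the same direction and side of the threshold. That threshold was set on the unadjusted exact permutation p for single measures and on the adjusted limma p for named ends. For counts of positions it meant a similar count, and for untested differences a shift smaller than the SD. With 4 libraries a background and 2 replicates a line, rare ends and small differences in tailing were not resolved.

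Replicate numbers mark no shared growth in the labels. Deviations of same-numbered libraries correlated at 0.468 between the mtr4 lines and at 0.27 between the Col-0 background lines. Between lines of different backgrounds they correlated at −0.245 to 0.0731, so libraries were not taken as pairs across backgrounds. Same-numbered libraries of a background thus varied together in part, whereas limma and the permutation tests took all libraries as independent. Permutation within replicate numbers cannot change a difference in means, so the values below are those of the main comparison. Their exact permutation p was then 0.0556, the smallest possible, so none could pass: P161 −5.80, P168 −9.86, P176 4.65, P186 −6.09, ends before P161 9.88, T137C −29.7, tailed share 9.34, tails from 2 nt 4.70, A content 9.71, tails of A only 18.7 and tails before P161 −14.1 percentage points, end entropy 0.402 bits and tail length 1.56 nt. Against rrp6L2 the blocked entropy difference was 0.385 bits, and against RRP44KD rrp6L2 the blocked differences were 14.9 (ends before P161), −10.3 (tails from 2 nt) and 5.03 (P163 to P167) points, 0.681 bits and −0.707 nt. With a replicate block, limma gave 20 higher and 9 lower positions.

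The entropy difference was 0.219 bits for reads with T, 0.169 bits for reads with C and 0.372 bits for ends from 140 to 200, none passing the test. The share of the 4 most frequent ends differed by −11.0 points in untailed reads and by −8.51 with ends moved back over templated A, both passing. Tail length differed by 0.299 nt among tails of 2 to 5 nt, and tails of A only by 9.23 points when counted from 1 nt, neither passing. Tails before P161 differed by −8.85 points with endogenous RRP41, by −19.3 with RRP41WT and by −2.44 from 1 nt. Tails on P176 and P177 differed by 4.48 points from 1 nt, against −2.97 from 2 nt. Entropy of tailed ends over all tails differed by 0.929 bits and passed. The permutation test per position gave 0 higher and 0 lower ends. The causes were not tested.

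Leaving out each library gave 16 to 23 higher and 7 to 9 lower positions, and these ranges of differences: P176 3.73 to 5.34, ends before P161 7.68 to 11.6, P163 to P167 −3.36 to −1.64, past P187 0.436 to 0.822, 4 most frequent ends −9.18 to −6.02, A content 7.78 to 11.2, tails of A only 16.5 to 21.3, T137C −34.9 to −24.6 and tails on P176 and P177 −6.94 to 0.889 points (positive without Col-0 replicate 1). They were 0.332 to 0.472 bits for end entropy, 0.384 to 0.781 bits for tailed ends, 10.3 to 15.005 different ends and 1.21 to 1.79 nt for tail length. Against rrp6L2 they were 6.89 to 11.8 points for ends before P161, 0.315 to 0.455 bits, −2.15 to 0.809 points for tails from 2 nt and −0.818 to 0.153 nt, the last 2 positive without rrp6L2 rrp41 RRP41WT replicate 1. Against RRP44KD rrp6L2, tail length differed by −0.848 to −0.568 nt. The exact permutation p was 0.0571 for P176 without either replicate 1 library of the mtr4 background or rrp41 RRP41WT replicate 2; for ends before P161 without any Col-0 background library or either replicate 2 library of the mtr4 background; for end entropy and T137C without any Col-0 background library; for tail length without mtr4 replicate 2 or either mtr4 rrp41 RRP41WT library; for A content without any mtr4 background library; and for tails of A only without either replicate 2 library of the mtr4 background. The remaining libraries did not overlap in any of these.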
